A study of Mus musculus with 12 samples.

Results

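The suppressors of cytokine signalling (SOCS proteins) are a family of 8 genes in the mouse, Cish and Socs1 to Socs7. All 8 were measured on the arrays of this study, among 19937 genes in all. They were chosen by name, and each gene was read from the probe set (a group of array probes for 1 transcript) that the array annotation pairs with that symbol alone. Where a gene had several such probe sets, the one with the highest mean over the 12 arrays was taken. Levels are log2 values from RMA (robust multi-array average, which brings the arrays to a common distribution and combines the probes of a probe set), so a difference of 1 is a change of 2-fold.

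RNA was taken from lymphocytes of the spleen of C57Bl/6 x FVB mice, with 3 arrays for each of 4 labelled groups. The treatments are known from the sample records by label, and genes that mark B and T cells, given below, go against those labels. Cells labelled activated B are recorded as held in culture for 4 days with aCD40 and IL4. Cells labelled activated T are recorded as held in culture for 4 days with aCD3, aCD28 and IL2. The labelled resting B cells are recorded as CD43-negative and the labelled resting T cells as B220-negative, both taken straight from the spleen on day 0. All groups share the strain, and no gene was deleted or added in any of them. Nothing in the sources states if the triplicate arrays stem from separate mice or cultures, so the p-values measure only the spread between arrays.

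SOCS proteins are made in response to cytokines and then switch the same signal off. A cytokine receptor activates JAK kinases, these phosphorylate STAT transcription factors, and STATs induce the SOCS genes among others. The SH2 domain of a SOCS protein binds phosphotyrosine on the receptor or the kinase, and its SOCS box recruits elongins and a cullin, a ubiquitin ligase that marks the bound protein for degradation. In lymphocytes the family limits the response to interleukins and interferons.

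The lineage genes did not follow the labels, and every result below is given by label. Cd3e, a subunit of the T cell receptor complex, averaged 10.07 ± 0.14 in labelled activated B cells and 10.61 ± 0.24 in labelled resting B cells, but 6.43 ± 0.28 in labelled activated T cells and 5.93 ± 0.36 in labelled resting T cells (log2, SD, n = 3 each). Cd79a, part of the B cell receptor, averaged 4.50 and 8.27 in labelled activated and resting B cells, and 11.64 and 10.45 in labelled activated and resting T cells. All 9 measured T cell markers were higher in labelled B than in labelled T cells, both after activation and at rest. Of 9 measured B cell markers, all 9 were lower in labelled activated B than in labelled activated T cells. At rest 6 of the 9 were lower in labelled resting B cells, Cr2 was higher by 1.31, and Bank1 (-0.64) and Fcrl1 (0.06) were not called. Mki67, a marker of dividing cells, averaged 10.58 ± 0.01 in labelled activated B and 6.56 ± 0.42 in labelled resting B cells. In the labelled T cells Mki67 ran the other way, with 6.31 ± 0.54 in activated and 10.18 ± 0.08 in resting cells. The arrays were otherwise alike in scale, with medians between 5.50 and 5.68 log2. The level of background was taken as 5.21 log2, the 95th percentile of 1027 olfactory receptor genes, which lymphocytes are not known to use.

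Members Socs2, Cish, Socs1, Socs3 and Socs5, differed clearly between the labelled groups, Socs4 differed less, and Socs6 and Socs7 passed no test. In a linear model across all genes (limma, 1 mean per group, p-values adjusted for all 19937 genes after Benjamini and Hochberg, call at an adjusted p under 0.05), 5 of the 8 members were called between labelled activated and resting B cells, 4 of them higher and 1 lower, against 36.5% of all genes called there (19.7% higher and 16.7% lower). Between labelled activated and resting T cells 6 of 8 were called, 2 higher and 4 lower, against 33.7% of all genes (15.9% higher and 17.8% lower). The median difference over the 8 members was 0.47 in the labelled B cells and -0.61 in the labelled T cells, where the medians of all genes were -0.02 and 0.02. Levels of different probe sets depend on their probes, so each member is compared only with itself.

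**Figure D1:**
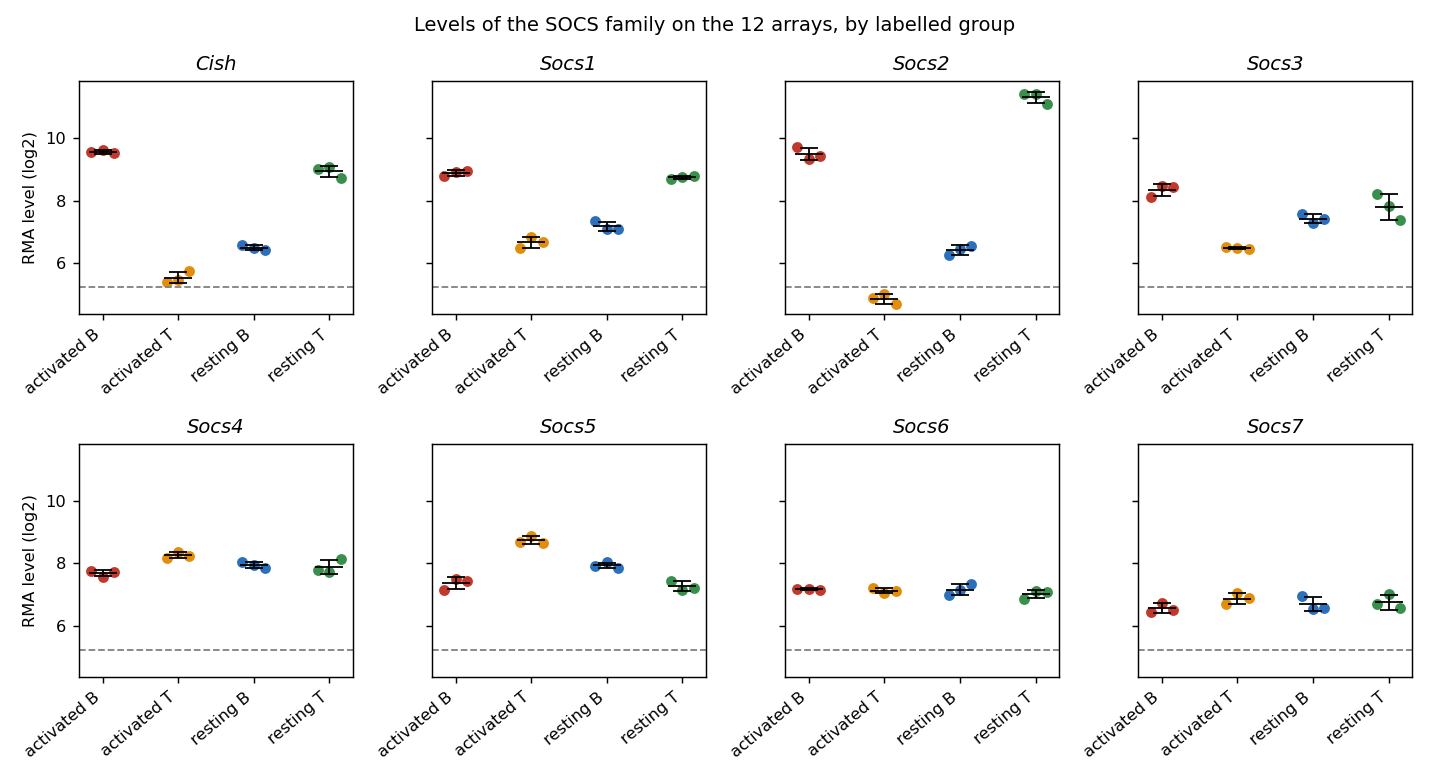
RMA level (log2, vertical axis) of each SOCS family member on each array, by labelled group (horizontal axis). Coloured points are the 3 arrays of a group, black bars the mean and SD, and the dashed line the level of background at 5.21. Socs2 ranged from 4.85 in labelled activated T cells, below that line, to 11.31 in labelled resting T cells, while Socs6 stayed between 7.02 and 7.17.

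Socs2, which dampens growth hormone signalling and is induced by STAT5, had wide differences between the groups on both of its probe sets. On the one with the higher mean, its level was 9.73, 9.34 and 9.44 on the 3 arrays of labelled activated B cells, against 6.26, 6.45 and 6.55 in labelled resting B cells. In labelled activated T cells it read 4.87, 4.99 and 4.69, against 11.43, 11.42 and 11.10 in labelled resting T cells. The groups did not overlap in either pair, and its mean in labelled activated T cells was not above background. The difference was 3.08 (SE 0.13, adjusted p = 9.82e-12) between labelled activated and resting B cells, a fold change of 8.47. Between labelled activated and resting T cells it was called lower (adjusted p = 1.28e-14). The measured difference was -6.46, of which the lower mean is not resolved. With background in place of the unresolved mean, this probe set was at least 68.7-fold lower in labelled activated than in labelled resting T cells. This is no lower limit for the gene. The other Socs2 probe set, above background in both groups, differed by -3.28 (adjusted p = 3.11e-08).

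Cish, the first member of the family to be found, binds receptors that activate STAT5 and restrains IL-2 and T cell receptor signals. Its level was 9.57, 9.64 and 9.52 in labelled activated B cells, against 6.57, 6.48 and 6.41 in labelled resting B cells. Labelled activated T cells read 5.39, 5.45 and 5.74, against 9.02, 9.08 and 8.73 in labelled resting T cells. No array of one group reached the range of the other in either pair. Cish rose by 3.09 (SE 0.11, adjusted p = 2.42e-12) in labelled activated B cells, 8.50-fold over labelled resting B cells. It fell by 3.41 (SE 0.11, adjusted p = 1.4e-12) in labelled activated T cells, 10.7-fold below labelled resting T cells. The 4 group means stood in the order activated B, resting T, resting B and activated T, and every pair of neighbours in that order passed the test.

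The promoter of Cish is printed because this gene carries a pair of STAT motifs just after its start. The window holds 250 bases before and 50 after the RefSeq start (chr9:107296409-107296708, plus strand, GRCm38.p6), and the 2 matches to TTCNNNGAA, the palindrome bound by STAT5 and other STATs, are in capitals.
Cish: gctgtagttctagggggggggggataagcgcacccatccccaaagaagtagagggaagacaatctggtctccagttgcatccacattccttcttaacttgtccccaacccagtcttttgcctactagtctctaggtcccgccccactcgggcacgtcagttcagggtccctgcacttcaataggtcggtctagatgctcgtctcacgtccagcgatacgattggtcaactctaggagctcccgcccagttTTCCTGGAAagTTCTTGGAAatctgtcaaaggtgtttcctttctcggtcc
They lie at bases 1 to 9 and 12 to 20 after the start. The motif reads the same on both strands and was searched in all 32851 RefSeq promoter windows of this length. At least 1 match occurred in 8.298% of them and at least 2 in 0.457%. The form with 1 more base between the arms, TTCNNNNGAA, which STAT6 prefers, occurred in 6.953% of all windows and in none of the members' windows. Windows were found for 4 of the 8 members, Cish, Socs1, Socs3 and Socs4. A match is a string of letters, and binding was not measured.

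Socs1, which blocks JAK kinases directly and is known for limiting interferon and IL-2 signals, had the same order of groups with smaller steps. Its level was 8.79, 8.92 and 8.95 in labelled activated B cells, against 7.35, 7.10 and 7.10 in labelled resting B cells. Labelled activated T cells read 6.48, 6.82 and 6.67, against 8.70, 8.77 and 8.79 in labelled resting T cells. The groups of each pair stood well apart. Socs1 rose by 1.71 (SE 0.10, adjusted p = 1.18e-09), or 3.26-fold, in labelled activated B cells, and fell by 2.09 (SE 0.10, adjusted p = 1.06e-10), or 4.26-fold, in labelled activated T cells. Its highest groups, labelled activated B and labelled resting T cells, differed by 0.14 with a 95% interval of -0.08 to 0.36 (adjusted p = 0.439). The Socs1 window (chr16:10785487-10785786, minus strand) held no match to either form of the motif.

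Socs3, which binds the shared IL-6 receptor chain gp130 and the JAK beside it, differed less and depended on the probe set. Its level was 8.13, 8.47 and 8.43 in labelled activated B cells, against 7.58, 7.29 and 7.41 in labelled resting B cells. Labelled activated T cells read 6.50, 6.48 and 6.43, against 8.20, 7.83 and 7.37 in labelled resting T cells. The 3 labelled resting T arrays were spread more widely (SD 0.42) than those of any other group for this gene, yet neither pair overlapped. Socs3 rose by 0.92 (SE 0.16, adjusted p = 0.000176) in labelled activated B cells and fell by 1.33 (SE 0.16, adjusted p = 4.05e-06) in labelled activated T cells. A second probe set annotated to Socs3 lay between 5.82 and 6.04 in every group and was called in no comparison. Its difference between labelled activated and resting B cells was 0.17 (adjusted p = 0.179), and with the mean of both probe sets the Socs3 differences were 0.54 in the labelled B cells and -0.70 in the labelled T cells, both still called.

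The Socs3 window (chr11:117969317-117969616, minus strand) held 1 match to TTCNNNGAA, from base -154 to base -146 relative to the start, and is shown for comparison with that of Cish, again with the match in capitals.
Socs3: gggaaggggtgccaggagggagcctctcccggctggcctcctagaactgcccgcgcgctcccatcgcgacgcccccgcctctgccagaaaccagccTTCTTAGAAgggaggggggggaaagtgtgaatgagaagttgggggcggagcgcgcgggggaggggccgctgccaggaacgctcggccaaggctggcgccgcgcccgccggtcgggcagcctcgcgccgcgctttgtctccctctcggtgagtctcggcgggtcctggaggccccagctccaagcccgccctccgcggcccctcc
Of the 3 members whose activation differences were largest in size, Cish had 2 matches and Socs1 none, and no window was found for Socs2.

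Socs5 ran in the opposite direction to these 4 genes. This member, studied as a regulator of the EGF receptor and of IL-4 signalling in mouse T cells, had a mean of 7.35 ± 0.19 in labelled activated B cells and 7.93 ± 0.09 in labelled resting B cells. Labelled activated T cells averaged 8.74 ± 0.13 and labelled resting T cells 7.26 ± 0.16 (SD, n = 3 each). The arrays of labelled activated T cells, at 8.65 to 8.89, lay above all others. Socs5 fell by 0.58 (SE 0.12, adjusted p = 0.000612) in labelled activated B cells and rose by 1.47 (SE 0.12, adjusted p = 2.63e-08), or 2.78-fold, in labelled activated T cells. Between labelled activated B and labelled resting T cells it differed by 0.09, with a 95% interval of -0.16 to 0.33.

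Socs4, the member closest in sequence to Socs5, averaged 7.69 ± 0.10 in labelled activated B and 7.95 ± 0.08 in labelled resting B cells, and 8.26 ± 0.10 in labelled activated T and 7.88 ± 0.22 in labelled resting T cells. It rose by 0.38 (SE 0.11, adjusted p = 0.0134) in labelled activated T cells. This call was lost when each array was centred on its median (0.27, adjusted p = 0.0575) and without any 1 of labelled resting T replicate 4 (0.33, adjusted p = 0.0568), labelled resting T replicate 5 (0.30, adjusted p = 0.0725) or labelled activated T replicate 5 (0.32, adjusted p = 0.0674). In the labelled B cells the difference was -0.26 (adjusted p = 0.0794). It was called with quantile normalisation (-0.39, adjusted p = 0.0191), among genes with a mean above background (adjusted p = 0.0498) and without labelled resting T replicate 6 (adjusted p = 0.0368). No pair of neighbours in its order of levels passed the test as fitted here. The neighbours labelled activated T and labelled resting B (0.31, adjusted p = 0.0648) were called under some alternatives, such as array weights (0.34, adjusted p = 0.0217). The lowest group, labelled activated B, stood 0.57 below the highest, labelled activated T (adjusted p = 0.000407).

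Socs6, which binds the receptor kinase KIT, and Socs7, which binds the adaptor NCK, were called in none of the 7 comparisons as fitted here. Socs7 in labelled activated B against activated T cells, at -0.30 (adjusted p = 0.1), was called with quantile normalisation (-0.40, adjusted p = 0.0314) and with array weights (-0.33, adjusted p = 0.0351). Socs6 averaged 7.17 in labelled activated B, 7.12 in labelled activated T, 7.16 in labelled resting B and 7.02 in labelled resting T cells. The difference between labelled activated and resting B cells was 0.01 with a 95% interval of -0.20 to 0.23, and between labelled activated and resting T cells 0.10 with an interval of -0.12 to 0.32. A second Socs6 probe set, annotated to the same transcripts, and another with a mean of 2.83 log2 had no call either. For Socs7 the same differences were -0.12 (interval -0.41 to 0.18) and 0.11 (interval -0.18 to 0.41). Changes within these intervals are compatible with the data and were not resolved with 3 arrays per group.

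**Figure D2:**
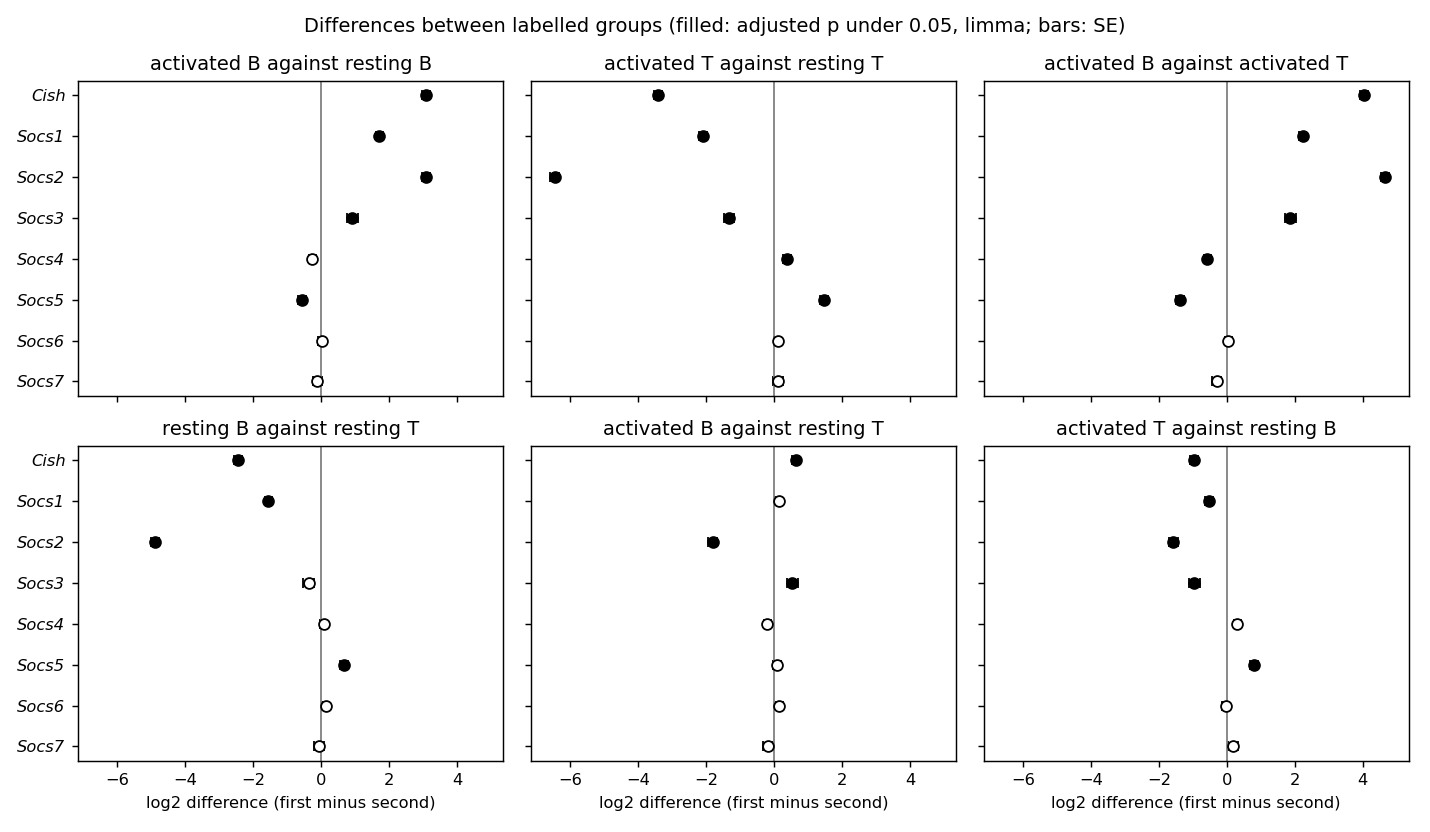
Differences in level between labelled groups (log2, first minus second, horizontal axis) for the 8 members (vertical axis), with bars of 1 SE. Filled points passed an adjusted p of 0.05 in limma. Cish, Socs1, Socs2 and Socs3 lie right of 0 in labelled activated against resting B cells and left of 0 in labelled activated against resting T cells, while Socs6 and Socs7 have no filled point.

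The difference between the effects of the activation label was tested as an interaction, that in labelled B cells minus that in labelled T cells. It was called for 6 of the 8 members, 4 with a positive and 2 with a negative value, against 42.7% of all genes (21.9% positive and 20.9% negative). Socs2 had a measured value of 9.54 (adjusted p = 2.02e-15) on the probe set used. With background in place of its mean in labelled activated T cells that was at least 9.18. On the other Socs2 probe set the value was 4.78 (adjusted p = 9.02e-09). Cish had 6.50 (SE 0.16, adjusted p = 1.13e-14). Socs1 had 3.80 and Socs3 2.24. The negative values were -2.05 for Socs5 (adjusted p = 1.64e-08) and -0.64 for Socs4 (adjusted p = 0.00289). The marker list of dividing cells moved with these results. Its mean level was between 10.09 and 10.11 on the labelled activated B arrays and between 5.73 and 6.21 on the labelled resting B arrays. It was between 5.54 and 6.18 on the labelled activated T arrays and between 9.63 and 9.72 on the labelled resting T arrays. All 5 measured markers of the list were called in both pairs, and the part of cell division in the SOCS results was not tested. In bulk RNA, fewer cells of a type and less RNA per cell cannot be told apart.

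Labelled B and T cells were compared within each state. After activation, 6 of 8 members were called, 4 higher and 2 lower, against 40.7% of all genes (21.8% higher and 18.9% lower). Cish was higher by 4.05 (16.5-fold) in labelled activated B than in labelled activated T cells, Socs1 by 2.23 and Socs3 by 1.87. On the probe set used, Socs2 was at least 19.6-fold higher, since its mean there in labelled activated T cells was not above background. This bound does not hold for the gene. The other Socs2 probe set, above background in both groups, was higher by only 1.66 log2 (adjusted p = 3.58e-06). Socs5 was lower by 1.39 (2.61-fold). At rest 4 of 8 members were called, 1 higher and 3 lower, against 35.1% of all genes (16.1% higher and 19% lower). Socs2 was -4.89 (29.7-fold lower), Cish -2.46 and Socs1 -1.57 in labelled resting B against labelled resting T cells, and Socs5 was 0.67 higher. Socs3 differed by -0.37 at rest (adjusted p = 0.0835), and without labelled resting T replicate 6 by -0.59 (adjusted p = 0.00243).

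The remaining pairs cross lineage label and state, and both groups of each pair had dividing cell markers on the same side. Between labelled activated B and labelled resting T cells these markers differed by a median of 0.40, with 3 of 5 called higher, and between labelled activated T and labelled resting B cells by a median of -0.11, with 1 higher and 1 lower. Between labelled activated B and labelled resting T cells 3 members were called, 2 higher and 1 lower, against 23% of all genes (13% higher and 9.93% lower). Socs2 was lower in labelled activated B cells by 1.81 (SE 0.13, adjusted p = 8.9e-09), 3.51-fold, and Cish was higher by 0.63 (adjusted p = 0.000396). Socs3 was higher by 0.54 (adjusted p = 0.0197), but its arrays overlapped, and the call was lost without labelled resting T replicate 6 (0.33, adjusted p = 0.103), labelled activated B replicate 2 (0.48) or labelled activated B replicate 3 (0.50). Between labelled activated T and labelled resting B cells 5 members were called, 1 higher and 4 lower, against 18.5% of all genes (8.82% higher and 9.68% lower). Cish (-0.96), Socs3 (-0.95) and Socs1 (-0.52) were lower in labelled activated T cells, and Socs5 was higher by 0.80. Socs2 was at least 2.31-fold lower on the probe set used, but its other probe set, above background in both groups, differed by only -0.16 (adjusted p = 0.613). T cell markers averaged 9.68 in labelled activated B against 5.79 in labelled resting T cells and 5.92 in labelled activated T against 9.99 in labelled resting B cells, so lineage genes differ within these pairs. These comparisons share arrays with those above.

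The second probe set of Socs2 gave smaller differences. It averaged 7.39 in labelled activated B and 5.89 in labelled resting B cells (difference 1.50, adjusted p = 1.25e-05). It averaged 5.72 in labelled activated T and 9.01 in labelled resting T cells (difference -3.28, adjusted p = 3.11e-08). Its mean in labelled activated T cells was above background, which the probe set with the higher overall mean was not. On it the interaction was 4.78 (adjusted p = 9.02e-09), and labelled resting B against resting T cells differed by -3.12. Each of these tests was adjusted over all 34760 probe sets, with or without a gene named.

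The genes with the profile nearest to each member were found by the root mean square difference of levels over the 12 arrays, after each gene was centred on its own mean, among 12867 genes. For Cish they were Ccnb2 (0.25 log2), Cks1b (0.29) and Plk1 (0.29), a mitotic cyclin, a partner of cyclin-dependent kinases and a mitotic kinase. For Socs1 they were Srm (0.15), Ldha (0.17) and Fdft1 (0.18), enzymes of spermidine, lactate and squalene synthesis. For Socs2 the nearest was Nfil3, a transcription factor induced by IL-4 in B cells, at 0.72, followed by Bub1 and Fads2. On the probe set used, no gene matched the steep profile of Socs2 as closely as others matched the rest. Socs3 was nearest to Coro1c, Pfkm and Egln1 (0.21 each), an actin-binding protein, a glycolytic enzyme and an oxygen sensor. Socs5 was nearest to Fam214a (0.14), Nbeal1 (0.15) and Atp2a3 (0.15), the last a calcium pump. Within the family, Cish was the 45th nearest gene to Socs2, and Socs1 the 214th nearest to Cish. In the reverse direction, Socs2 was the 749th nearest to Cish, and Cish the 1824th nearest to Socs1. Many genes share these 4-group profiles, and the measure is a description of 12 arrays.

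**Figure D3:**
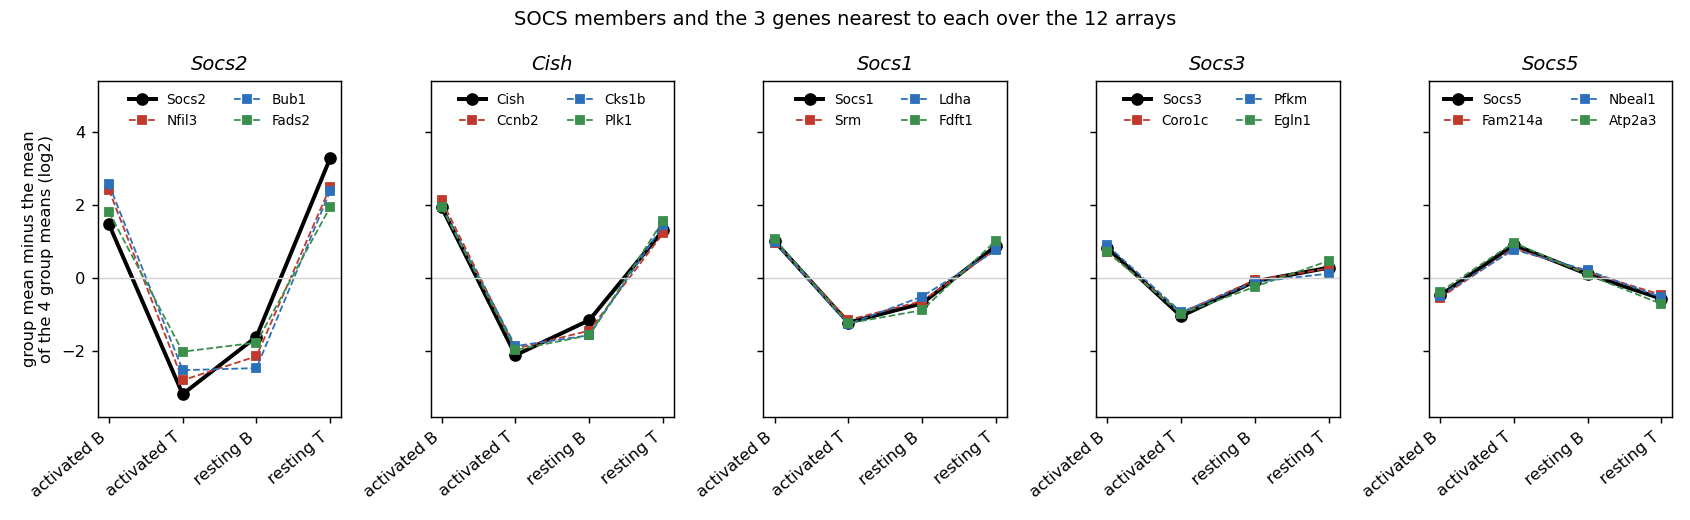
Group means minus the mean of the 4 group means (log2, vertical axis) of 5 SOCS members (black) and of the 3 genes nearest to each (coloured, dashed), by labelled group (horizontal axis). Lines join groups only to guide the eye. The partners of Cish, Socs1, Socs3 and Socs5 lie close to their member, while those of Socs2 (0.72 to 0.93 log2 away) are less steep.

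The partners that turn the SOCS box into a ubiquitin ligase moved in part with the family. For this list and those below, 36.5% of all genes were called in the labelled B pair (19.7% higher, 16.7% lower). In the labelled T pair the share was 33.7% (15.9% higher, 17.8% lower). Of 8 partner genes, 4 rose and none fell in labelled activated B cells, with a median of 0.36. In labelled activated T cells 1 rose and 5 fell, with a median of -0.45. The elongins that contact the SOCS box directly were among them, Elob at 0.93 (adjusted p = 7.21e-06) in the labelled B cells and Eloc at 0.60 there and -0.76 in the labelled T cells. Arih2, a ligase that works with cullins, was the gene that rose in labelled activated T cells (0.43). Cul2, the scaffold of related ligases, had the largest differences, 1.19 and -1.18. Cul5, the cullin that SOCS proteins use, fell by 0.31 in labelled activated T cells (adjusted p = 0.0305) and differed by 0.13 (adjusted p = 0.406) in the labelled B cells.

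The kinases and factors that SOCS proteins act on moved in both directions. Of 9 JAK and STAT genes, 4 rose and 4 fell in labelled activated B cells, against 36.5% of all genes called. In labelled activated T cells 3 rose and 4 fell, against 33.7%. Jak1, the kinase of the IL-2 and IL-4 receptors among others, was 1.29 lower in labelled activated than in labelled resting B cells (adjusted p = 4.71e-08) and 0.98 higher in labelled activated than in labelled resting T cells. Jak2 rose in both, by 0.56 and 0.57. Stat3 rose by 0.59 and Stat4 fell by 0.80 in labelled activated B cells. Stat5a fell by 1.26 and Stat2 by 0.70 in labelled activated T cells. Stat6, which carries the IL-4 signal, fell by 0.46 in labelled activated B cells and rose by 0.31 in labelled activated T cells.

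Of 30 cytokine receptor genes, 7 rose and 14 fell in labelled activated B cells (median -0.28), against 36.5% of all genes called. In labelled activated T cells 10 rose and 10 fell (median 0.06), against 33.7%. Il2ra, the inducible chain of the IL-2 receptor, rose by 4.70 in labelled activated B cells and fell by 3.59 in labelled activated T cells. Its labelled activated T mean (4.84) was below background, so the size of that fall is not resolved. Il12rb2, a chain of the IL-12 receptor, rose by 3.83 in labelled activated B cells. Il4ra, the IL-4 receptor chain, rose by 1.62 and fell by 1.38 in the same pairs. Il6ra and Il6st, the receptor that Socs3 limits, fell by 2.42 and by 1.71 in labelled activated B cells. Il5ra, a receptor chain of mouse B cells and eosinophils, fell by 3.95 in labelled activated T cells, while Il10ra and Il10rb, the IL-10 receptor, rose by 2.66 and by 1.52. Among 16 cytokine genes, 8 rose and 2 fell in labelled activated B cells (median 0.31), led by Lif (4.34) and Il10 (4.34), while Ifng and Il15 (-0.45) fell. In labelled activated T cells 0 rose and 2, Il15 and Il6, fell, a smaller share than the 33.7% of all genes called there. Il15 in both pairs and Il6 in the labelled T pair had all group means below background, so these falls are not resolved. The labelled resting B means of Lif (4.71), Il10 (3.70) and Il21 (3.31) were below background too, which leaves the sizes of their rises unresolved. Il5 (4.56 against 4.01) and Csf2 (4.79 against 3.90), also counted as rises, had means below background in both labelled B groups and are not resolved.

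Genes known as STAT5 targets, chosen without SOCS members, had the largest median shift of the cytokine signalling lists. Of 14, 11 rose and 2 fell in labelled activated B cells (median 1.28), against 36.5% of all genes called. In labelled activated T cells 2 rose and 8 fell (median -1.27), against 33.7%. Gzmb, a cytotoxic protease, rose by 5.94 and fell by 3.90 in these pairs. Pim1, a survival kinase, rose by 1.31 and fell by 2.43. Foxp3 (-1.14) and Mcl1 (-0.55) fell in labelled activated B cells, and Mcl1 (0.71) and Bcl2 (0.65), which protect from apoptosis, rose in labelled activated T cells. Of 10 STAT6 targets, 4 rose and 2 fell in labelled activated B cells (median 0.08), and 0 rose and 5 fell in labelled activated T cells (median -0.71). Nfil3 rose by 4.55 and fell by 5.29. Gata3, a T helper 2 factor, rose by 1.85 in labelled activated B cells, where Fcer2a (-2.03), the low-affinity IgE receptor, and Chil3 (-0.96) fell. Ccl22, a chemokine, fell by 4.74 in labelled activated T cells. Nfil3 (5.07) and Ccl22 (4.97) in labelled activated T cells, and Fcer2a (4.24) in labelled activated B cells, had means not above background. The sizes of these falls are not resolved, and Chil3 was below background in both labelled B groups. The markers of dividing cells, none of which is in these lists, moved in the same pairs, and their part in these shifts was not tested.

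A list of other inhibitors, of cytokine signals or of lymphocyte receptors, ran mainly the other way from Cish, Socs1, Socs2 and Socs3. Of 16, 2 rose and 8 fell in labelled activated B cells (median -0.38), against 36.5% of all genes called. In labelled activated T cells 8 rose and 3 fell (median 0.53), against 33.7%. Ptpn2, a phosphatase of JAKs and STATs, rose by 1.18 in labelled activated B cells, and Ptpn1, a related phosphatase, by 0.49. Bcl6, a repressor at STAT sites, fell by 1.42. Usp18, which limits interferon receptors, fell by 1.21 in labelled activated B and by 1.89 in labelled activated T cells, where Ptpn11 fell by 0.33. Cblb, a ubiquitin ligase that restrains lymphocyte receptors, and Sla, an adaptor that does likewise, rose by 3.10 and by 2.25 in labelled activated T cells.

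**Figure D4:**
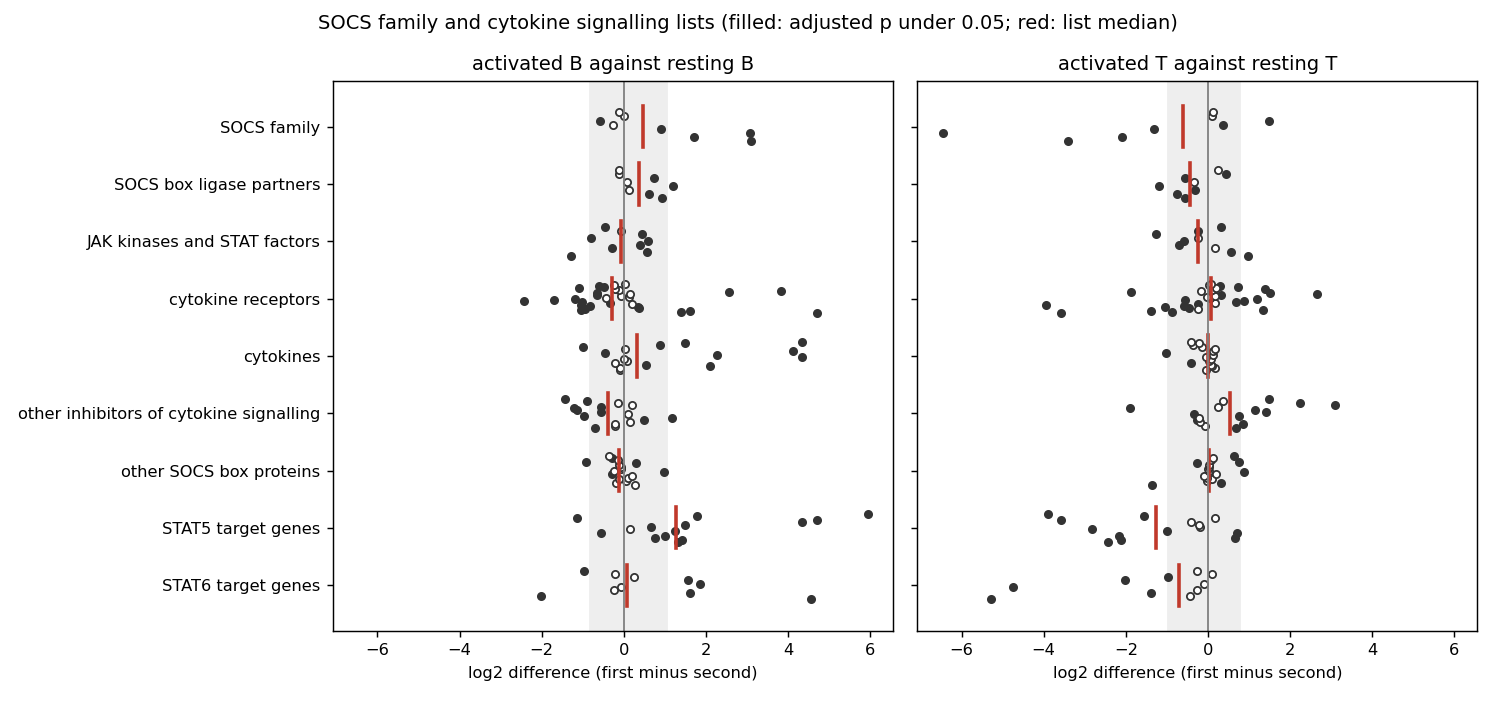
Differences (log2, first minus second, horizontal axis) of single genes of the SOCS family and of the cytokine signalling lists (vertical axis), in labelled activated against resting B cells (left) and labelled activated against resting T cells (right). Filled points passed an adjusted p of 0.05, red bars are list medians and the grey band spans the 5th to 95th percentile of all genes (-0.83 to 1.05, and -0.96 to 0.79). The medians of the STAT5 targets, 1.28 and -1.27, lie outside the band on both sides.

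Markers of other cells moved between these groups too. The myeloid list averaged 4.70 in labelled activated B and 7.25 in labelled resting B cells, with 9 of 10 markers called lower. It averaged 6.94 in labelled activated T and 5.65 in labelled resting T cells, with 6 of 10 called higher. Its array means ran from 4.66 to 4.75 and from 7.02 to 7.65 in labelled activated and resting B cells, and from 6.68 to 7.12 and from 5.60 to 5.69 in labelled activated and resting T cells. In labelled activated B cells 7 of the 10 markers were not above background, and in labelled resting T cells 4 of 10 (Itgam, Cd14, Slc40a1 and Vcam1). In labelled activated T and in labelled resting B cells only Cd14 was not. Natural killer markers were lower in labelled activated than in labelled resting B cells for 5 of 5 genes, and dendritic cell markers likewise for 5 of 5. In labelled activated B cells 3 natural killer and 3 dendritic cell markers were not above background, so the sizes of their falls are not resolved. In labelled activated against resting T cells 4 of 5 natural killer and 3 of 5 dendritic cell markers were higher, and 1 dendritic cell marker was lower. In labelled resting T cells 4 natural killer and 2 dendritic cell markers were not above background. Of all genes, 16.7% were called lower in the labelled B pair, and 15.9% higher and 17.8% lower in the labelled T pair. Immediate early genes, which respond quickly to stimuli and to handling, averaged 6.70 in labelled activated B and 8.54 in labelled resting B cells, and 8.53 in labelled activated T and 6.62 in labelled resting T cells. The part of these cells and genes in the SOCS differences was not tested.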

How the data were processed

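Total RNA of 12 samples was hybridised to Affymetrix mouse arrays. The authors deposited log2 values, 1 for each of 34760 probe sets and 12 arrays from RMA, as named in the submitters' processing notes (its version is not given in the sources used here). RMA equalises the arrays, so a change shared by most genes is hidden, and low values are compressed. Arrays carry no read depth, and their number, 3 per group, limits the precision. The probe annotation paired 21640 probe sets with 1 symbol, 1321 with several and 11799 with none, which gave 19937 genes.

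A linear model was fitted to all 12 arrays with lmFit and eBayes of limma 3.58.1 (R 4.3.3), with 1 mean per labelled group, 8 residual degrees of freedom and Benjamini-Hochberg adjustment across the 19937 genes. Groups came from the labels. All 6 pairs of groups and the interaction were compared. Alternatives changed the scaling, the filter on dim genes, the handling of probe sets, the variance model, the arrays used and the pairing. None read a member from its other probe set alone. The fit was tested on simulated data. Python 3.11.15 with pandas 2.3.3 and matplotlib 3.10.9 made the tables and plots. Promoter sequences are from RefSeq (GRCm38.p6).

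The members and gene lists were chosen with earlier results of these data known. From each list reported, the text names the 2 genes with the largest called difference in each direction in labelled activated against resting B and T cells. Eloc and Cul5 (with their values in both pairs), Il4ra, Il5, Il21, Csf2, Pim1 and Stat6 were added after their values were seen. Some listed genes, and 1 of the lists, are not reported here. Replicate numbers are shared between activated and resting arrays of a lineage label. After the group means were removed, arrays of 1 number correlated at 0.21, 0.14 and 0.22 in labelled T cells (12867 genes), which was taken as pairing, and at -0.05, 0.05 and 0.23 in labelled B cells, which was not.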

Additional observations from a re-analysis of the deposited data

Results flagged for a closer look

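For 6 members the difference between labelled activated and resting cells was not the same in labelled B and labelled T cells. This was the interaction test of limma over all genes, which called 42.7% of all genes (21.9% positive and 20.9% negative). The effect in labelled B cells minus that in labelled T cells was 9.54 as measured for Socs2 on the probe set used. With background in place of its unresolved mean in labelled activated T cells it was at least 9.18. The value was 6.50 for Cish, 3.80 for Socs1, 2.24 for Socs3, -2.05 for Socs5 and -0.64 for Socs4. On the other probe sets it was 4.78 for Socs2 (adjusted p = 9.02e-09) and 0.23 for Socs3 (adjusted p = 0.155, not called). All 6 members were called at an adjusted p under 0.05 in every alternative run for them. None of these alternatives used the other probe sets by themselves. The values stand on group labels that the lineage genes go against. In the labelled T pair the dividing cell markers do not follow the state labels either, with all 5 lower in labelled activated cells.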

How the results depend on the processing

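The 56 member differences (8 members in 7 comparisons) were recomputed under the alternatives, which gave 1248 values. Of 35 called differences, 33 kept their call and direction under every alternative, and the exceptions were Socs3 in labelled activated B against labelled resting T cells and Socs4 in labelled activated against resting T cells. Besides the values without single arrays given above, that Socs3 call was lost with the arrays of those groups alone (adjusted p = 0.0536). It was also lost when every probe set was fitted, read from the same Socs3 probe set (adjusted p = 0.0638). No alternative used a member's other probe set by itself. On those, Socs3 was called in no comparison, and Socs2 was not called in labelled activated T against labelled resting B cells (-0.16, adjusted p = 0.613). The mean of all probe sets lowered the size of the Socs3 differences by over 1.5 times with no call lost, and that of Socs2 in labelled activated T against labelled resting B cells, which was then -0.87. The number of members called ranged from 5 to 6, 5 to 6, 4 to 5, 6 to 7, 2 to 3, 5 to 6 and 6 to 6 over the alternatives, for labelled activated against resting B, activated against resting T, resting B against resting T, activated B against activated T, activated B against resting T, activated T against resting B, and the interaction. No called value changed sign. Values near 0 did. With each array centred on its median, Socs6 was -0.0032 in labelled activated against resting T cells and 0.12 in the interaction, and Socs4 was -0.0131 in labelled resting B against resting T cells. With quantile normalisation Socs6 was -0.0618 in labelled activated against resting B cells and -0.0538 in labelled activated B against activated T cells, and with array weights -0.0164 in labelled activated against resting B cells. Leaving out single arrays gave ranges that crossed 0 for Socs6 in labelled activated against resting B cells (-0.0688 to 0.0996) and in labelled activated T against resting B cells (-0.1172 to 0.0511), for Socs7 in labelled activated against resting B cells (-0.2001 to 0.0122) and in labelled resting B against resting T cells (-0.2031 to 0.0610), and for Socs4 in the last of these pairs (-0.0127 to 0.1884). Centring on the median moved the median of all genes to 0.09 in the labelled B pair, -0.09 in the labelled T pair, 0.10 in labelled activated B against activated T cells and 0.18 in the interaction, against -0.02, 0.02, -0.03 and -0.03. With the replicate number as a replicate block, 5 members were called in labelled B and 6 in labelled T cells, as without it. The block changed no member's call, and over all genes 7119 and 6559 were called, against 7272 and 6722 without it. Levels below 5.21 log2 were not resolved from background, which limits Socs2 in labelled activated T cells.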

Other observations

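Outside the SOCS family, 17 other genes for proteins with a SOCS box were measured. In labelled activated against resting B cells 2 were higher and 3 lower (median -0.13), where 36.5% of all genes were called, and in labelled activated against resting T cells 4 were higher and 2 lower (median 0.04), where 33.7% of all genes were called. Asb2, which is known for degrading filamins, rose in both, by 0.99 and by 0.89. Asb8 rose by 0.31 in labelled activated B cells and fell by 0.28 in labelled activated T cells. Rab40c fell by 0.30 in labelled activated B cells. Asb13 fell by 0.91 in labelled activated B cells and rose by 0.74 in labelled activated T cells. Spsb1, which binds inducible nitric oxide synthase, fell by 1.36 in labelled activated T cells.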
